A study of Homo sapiens with 54 samples.

Results

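The 6 genes described here encode metallothioneins and a zinc exporter: MT1E, MT1F, MT1G, MT1X, MT2A and SLC30A1. They were taken from the gene table by symbol, and all 6 were found among its 58870 rows. Metallothioneins are small, cysteine-rich proteins of the cytosol that bind zinc, copper and cadmium and buffer free zinc, and SLC30A1 (ZnT1) moves zinc out of the cell across the plasma membrane. Both are classical targets of MTF1, a zinc finger transcription factor that is activated by free zinc and binds metal response elements in promoters, and cultured epithelial cells are known to raise MT2A, MT1X and SLC30A1 transcripts when given excess zinc or cadmium. Metallothionein genes also respond to glucocorticoids and to oxidants.

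RNA was sequenced from A549, an established human lung adenocarcinoma cell line. The cells held either an empty vector, which has no insert, or a construct for overexpression of USP18. USP18 is the protease that removes the ubiquitin-like modifier ISG15 from proteins. Each vector line was treated for 48 h with DMSO vehicle or with 1 of 3 compounds known here by code: CP2 at 2 or 5 µM, CP14 at 1, 2.5 or 5 µM, and CP18 at 1, 2.5 or 5 µM. This gave 18 groups of 3 libraries, 54 in all. The same DMSO libraries served as the control for every compound, so the comparisons with vehicle share them. Each vector has 1 name in the labels, called a line here, without a statement of whether it covers 1 line, a pool or several transfections. The labels do not say whether replicates came from separate cultures, so p-values measure only the spread between these libraries.

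Library totals ran from 16673228 to 25609062 estimated counts, with a median of 19701304. USP18 transcripts lay between 8.77 and 12.3 CPM (counts scaled to a fixed library total) in the empty vector libraries and between 947 and 2115 CPM in the USP18 libraries, without overlap. Within the USP18 libraries the level was not constant across treatments. It was 1292 to 1328 CPM with vehicle, 1965 to 2115 CPM with 5 µM CP14 and 947 to 1004 CPM with 1 µM CP18. The part of this variation in the members' differences was not tested. Of the epithelial markers, KRT8 and KRT18 were abundant in every library (at least 1264 and 1658 CPM). CDH1, KRT19 and EPCAM were lower, at 21.2 to 240 CPM, 3.65 to 50.9 CPM and 1.33 to 14.8 CPM. The alveolar type II gene SFTPB was at 0 in all libraries and SFTPC did not exceed 7 counts. LAMP3, also listed with alveolar type II cells, had 2 to 819 counts. Of the immune markers CD3E was at 0 and PTPRC had at most 7 counts, whereas CD14 was counted in all 54 libraries (1 to 80 counts). The endothelial genes PECAM1, VWF and CDH5 had at most 10, 4 and 5 counts. Of the fibroblast markers DCN had at most 3 counts, while COL1A1 (71 to 346), COL3A1 (3 to 75) and LUM (1 to 47) were counted in every library.

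The promoters of MT2A, MT1X and SLC30A1, the 3 members with an entry in the RefSeq promoter table used here, are shown because MTF1 acts through short elements close to the start site. MT1E, MT1F and MT1G had no entry. Each sequence gives the 250 bases before the RefSeq start of transcription (GRCh38.p14), read 5′ to 3′ on the strand of the gene. Capitals mark matches to the core of the metal response element, searched on both strands as TGCACNC and TGCGCNC; no matches overlapped.
MT2A: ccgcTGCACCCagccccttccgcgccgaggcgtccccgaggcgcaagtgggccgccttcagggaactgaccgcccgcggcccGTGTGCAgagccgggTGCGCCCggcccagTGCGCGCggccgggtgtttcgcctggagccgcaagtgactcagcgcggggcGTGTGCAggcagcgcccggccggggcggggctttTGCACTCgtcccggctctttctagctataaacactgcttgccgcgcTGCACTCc
MT1X: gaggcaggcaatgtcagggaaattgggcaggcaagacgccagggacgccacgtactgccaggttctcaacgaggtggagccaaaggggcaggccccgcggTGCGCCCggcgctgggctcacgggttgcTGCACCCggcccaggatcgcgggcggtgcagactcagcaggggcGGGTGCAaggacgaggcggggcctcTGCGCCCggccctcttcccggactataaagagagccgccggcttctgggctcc
SLC30A1: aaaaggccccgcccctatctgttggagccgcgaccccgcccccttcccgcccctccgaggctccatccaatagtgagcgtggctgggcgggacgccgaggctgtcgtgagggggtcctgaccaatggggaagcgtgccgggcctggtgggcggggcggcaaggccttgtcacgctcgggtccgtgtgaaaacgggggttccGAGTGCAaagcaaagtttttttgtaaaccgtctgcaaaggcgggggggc
The MT2A stretch lies at chr16:56608334-56608583 on the plus strand and held 7 matches, the nearest beginning 8 bases before the start site. MT1X, at chr16:56682220-56682469 on the plus strand, held 4 matches, the nearest at 53 bases. SLC30A1, at chr1:211579162-211579411 on the minus strand, held 1 match at 49 bases. Among 27305 RefSeq promoters of the same length, 24.7% held at least 1 match, 0.366% at least 4 and 0.0330% at least 7. A match describes the letters of the window and is not a measured binding site.

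The members differed widely in level. Scaled to the length of the canonical transcript, MT2A was the most abundant metallothionein, with a median of 52.0 CPM per kilobase over the 54 libraries. The corresponding medians were 18.8 for SLC30A1, 10.1 for MT1X and 1.92 for MT1F. In counts, the libraries held 236 to 1303 for MT2A, 1381 to 3241 for SLC30A1, 49 to 136 for MT1X and 5 to 32 for MT1F, so MT1F was the least precise of the 4.

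MT1E and MT1G were not detectable at this depth. MT1G had 0 counts in all 54 libraries, and MT1E had 3 counts in 1 library (CP14 2.5 µM, empty vector, replicate 2) and 0 in the rest. A count of 0 allows up to 3 counts, or 0.117 to 0.18 CPM depending on the library, counting error only. The remaining 4 members passed the low-count filter in all 53 comparisons as designed. Of 11 other metallothionein genes and pseudogenes listed, none passed it in the comparisons with vehicle. MT1A was the best covered of them, with at most 10 counts, and MT1M had none.

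By position, the metallothioneins lie together on the long arm of chromosome 16 (GRCh38, GENCODE v44). MT2A spans chr16:56608584-56609497, MT1E chr16:56625475-56627112, MT1F chr16:56657731-56660698 and MT1X chr16:56682470-56684196, all on the plus strand, and MT1G spans chr16:56666730-56668065 on the minus strand. SLC30A1 spans chr1:211571568-211579161 on the minus strand and has 2 exons. The family members resemble each other in sequence. Of the 50-base windows of the canonical transcript, 11.1% for MT2A, 10.3% for MT1E, 6.12% for MT1F, 19.9% for MT1G and 51.0% for MT1X also occur in a transcript of another gene, against 0 for SLC30A1. Sharing was not only among the members. The genes sharing most windows with MT1X were a gene without a symbol, MT1G and MT1XP1, and with MT2A they were MT2P1, MT1G and MT1X. Reads from those windows could be divided between genes by the estimation of counts, so MT1X in particular, and the counts at or near 0 of MT1E and MT1G, are uncertain, although only 2 of 324 member values were not whole numbers.

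MT2A was the member with the largest response. With vehicle, the empty vector libraries held 23.3, 22.1 and 23.1 CPM. With CP14 at 5 µM they held 62.9, 65.1 and 60.2 CPM. All 3 treated libraries lay above all controls, and no other group with the empty vector had a library above 30.4 CPM. The rise was 2.74-fold (log2 fold change 1.45, SE 0.063, adjusted p = 1.6e-14 by edgeR's quasi-likelihood test).

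**Figure D1:**
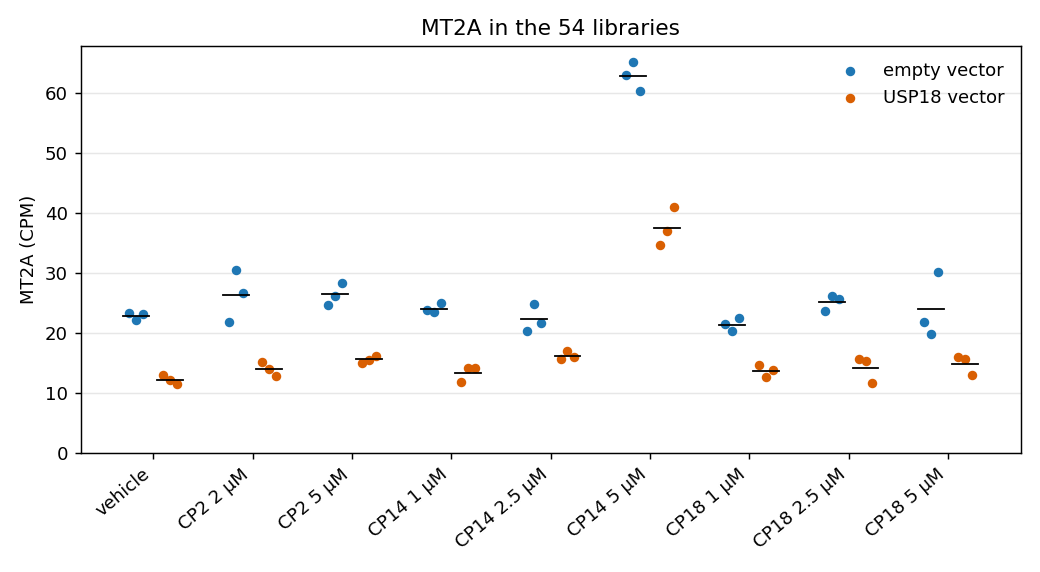
MT2A level in CPM (linear axis from 0) in each library, by compound and dose, for cells with the empty vector (blue) and the USP18 vector (orange); points are libraries and black bars are group means of 3. The CP14 5 µM groups stand at 62.7 and 37.5 CPM, and in each of the 9 conditions the empty vector libraries lie above the USP18 libraries.

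In cells with the USP18 vector, MT2A stood lower at the outset and rose in like proportion. The vehicle libraries held 12.9, 12.1 and 11.4 CPM. With CP14 at 5 µM the values were 34.6, 36.9 and 41.0 CPM. Again the groups did not overlap, and the rise was 3.08-fold (log2 1.62, SE 0.072, adjusted p = 1.5e-14). The rises in the 2 lines differed by 0.17 on the log2 scale (95% interval -0.03 to 0.37), which did not pass the test of the interaction (adjusted p = 0.21).

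SLC30A1, the exporter, moved in the same direction at that dose by a smaller amount. In the empty vector line the vehicle libraries held 126, 126 and 129 CPM, and the CP14 5 µM libraries held 154, 144 and 163 CPM. The treated libraries were all higher, with a rise of 1.20-fold (log2 0.27, SE 0.049, adjusted p = 6.7e-05). In the USP18 line the values were 87.2, 93.2 and 91.4 CPM with vehicle and 112, 125 and 129 CPM with CP14. These groups did not overlap either, and the rise was 1.34-fold (log2 0.42, SE 0.051, adjusted p = 2.2e-07).

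MT1X, another metallothionein with broad expression in epithelial cells, passed the test in only the USP18 line. There its levels were 2.69, 3.22 and 3.40 CPM with vehicle and 4.03, 4.80 and 6.96 CPM with CP14 at 5 µM. The treated libraries lay above the controls although they spread widely, and the rise was 1.68-fold (log2 0.75, SE 0.19, adjusted p = 0.0012). In the empty vector line the values were 4.94, 4.60 and 5.08 CPM against 7.42, 5.65 and 5.46 CPM, a log2 difference of 0.33 (SE 0.17, adjusted p = 0.10), which passed without replicate 3 of the USP18 CP14 group (0.048). The difference between the 2 lines itself did not pass (0.42, 95% interval -0.10 to 0.95, adjusted p = 0.24).

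MT1F was measured at 13 to 24 counts per library with vehicle in the empty vector line, and its differences did not pass the test. At 5 µM CP14 the log2 difference was 0.14 (95% interval -0.51 to 0.79) with the empty vector and 0.26 (-0.42 to 0.95) with USP18. Intervals of this width would not show a change of the size seen in SLC30A1.

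**Figure D2:**
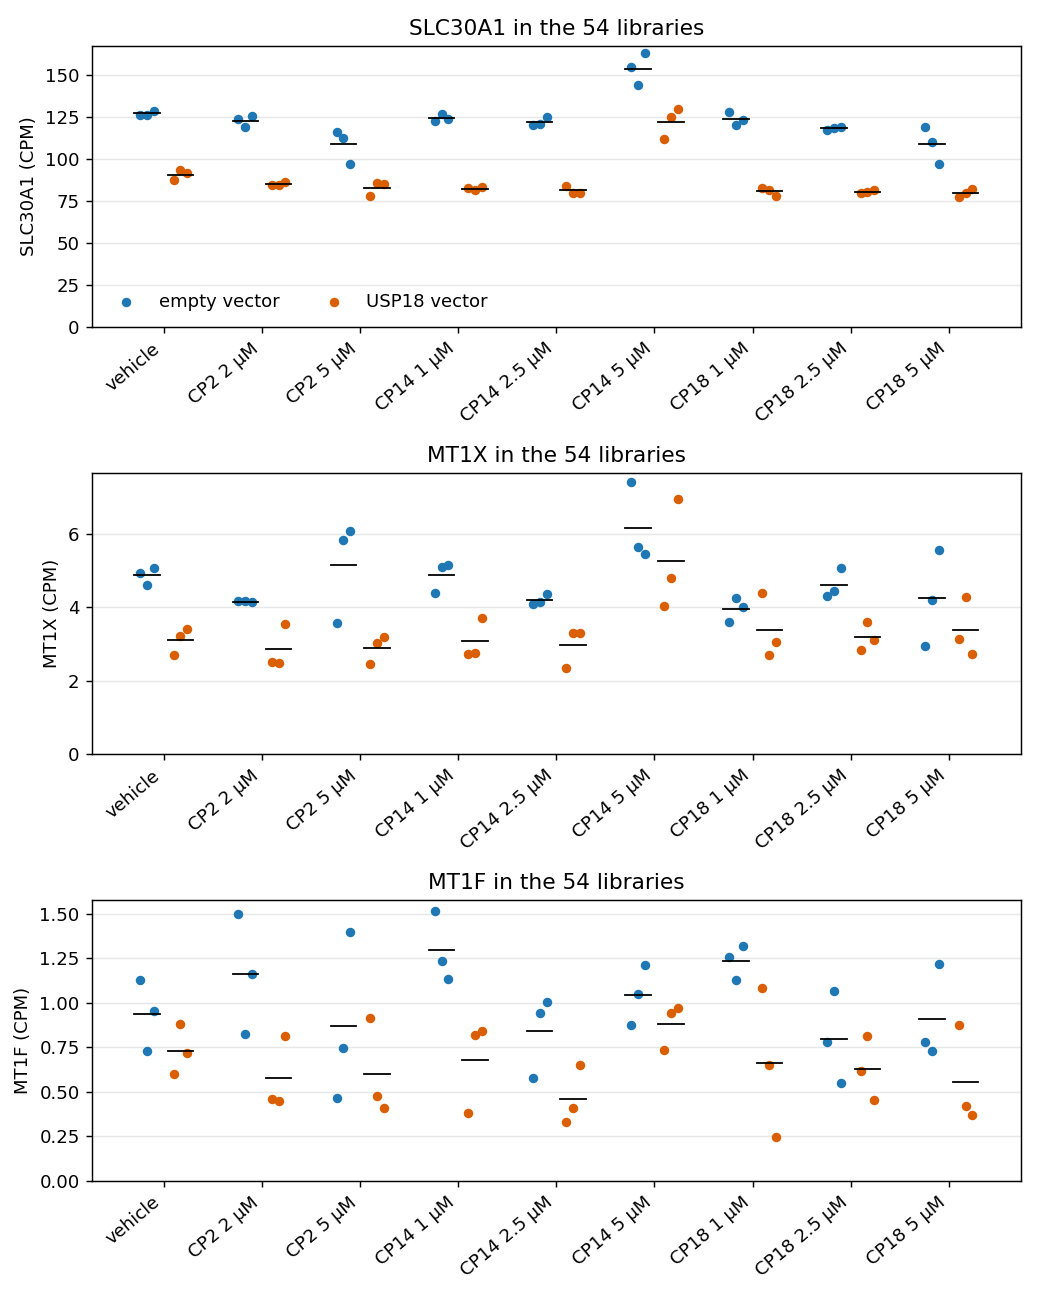
SLC30A1, MT1X and MT1F levels in CPM (linear axes from 0) in each of the 54 libraries, by compound and dose; blue points are empty vector libraries, orange points USP18 libraries and black bars group means of 3. SLC30A1 stands highest with CP14 at 5 µM in both lines (153.6 and 122.0 CPM), whereas the MT1F groups overlap their neighbours in the order of means throughout.

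Counted over the members, 2 of the 4 tested rose with 5 µM CP14 in the empty vector line at an adjusted p under 0.05, where 63.2% of all genes tested passed in either direction. In the USP18 line 3 of 4 rose, where 68.6% of all genes passed. Counting rises alone, 4949 of the 15947 genes tested passed with the empty vector and 5481 with USP18. With a log2 fold change above 1 required as well, MT2A alone remained in each line, beside 13.8% and 18.0% of all genes. Passing the test was thus common at this dose, and the members' counts are not set apart from it. The median log2 difference of the 4 tested members was 0.30 and 0.59, against 0.01 and 0.01 over all genes tested. The members were chosen with earlier results of these data known, so these medians are a description and not an independent test. When the counts of 14 MT1 and MT2A rows were summed, the total rose by 1.27 (SE 0.064) and 1.44 (SE 0.072) on the log2 scale. MT2A made up most of that total with 5 µM CP14, at a mean of 62.7 of 70.2 CPM with the empty vector and 37.5 of 43.7 CPM with USP18. The sum therefore largely repeats the MT2A rise.

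Other measurements moved at the same dose. The summed level of 5 epithelial markers ranged from 11284.5 to 11560 CPM with vehicle and from 4332 to 4592 CPM with 5 µM CP14 in the empty vector line, and from 7239 to 7435 against 2995 to 3193 CPM in the USP18 line. KRT8 and KRT18 carried most of these sums, with medians over the 54 libraries of 3845 and 3599 CPM. The medians of CDH1, KRT19 and EPCAM were 79.1, 15.6 and 3.59 CPM. KRT8, KRT18 and CDH1 fell by more than 1 on the log2 scale in both lines, and EPCAM in the empty vector line. Their part in the metallothionein result was not tested. Because the libraries come from bulk RNA, fewer cells with a transcript and less transcript per cell cannot be told apart.

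Below 5 µM CP14, and with the other compounds, differences from vehicle in MT2A, SLC30A1 and MT1X were smaller than at 5 µM CP14 in the same line. Some of those in MT1F were larger. MT1X and MT1F passed in none of these 14 comparisons, with log2 differences from -0.30 to 0.11 for MT1X and from -0.68 to 0.45 for MT1F. In the 12 comparisons of MT2A with vehicle that did not pass, the log2 differences ran from -0.10 to 0.28. MT2A rose with 2.5 µM CP14 in the USP18 line, where the libraries held 15.6, 17.0 and 15.9 CPM against 12.9, 12.1 and 11.4 with vehicle. These groups did not overlap (1.34-fold, log2 0.42, SE 0.083, adjusted p = 0.00076). With the empty vector at the same dose the libraries held 20.3, 24.8 and 21.6 CPM, which overlap the vehicle range (log2 -0.04, SE 0.074, adjusted p = 0.79).

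That difference between the lines passed its own test: the interaction of 2.5 µM CP14 with the vector was 0.46 for MT2A (95% interval 0.22 to 0.69, adjusted p = 0.017). Among the interactions of the 4 tested members with the 8 compound doses, no other passed. Without replicate 3 of the USP18 vehicle group the adjusted p was 0.055, without replicate 2 of the USP18 group at 2.5 µM CP14 it was 0.053, and in 1 fit over all 54 libraries it was 0.07. The interaction itself was 0.41, 0.41 and 0.45 in these fits.

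MT2A also rose with CP2 at 5 µM in the USP18 line, to 15.0, 15.4 and 16.2 CPM, above all 3 vehicle libraries (1.27-fold, log2 0.35, SE 0.075, adjusted p = 0.0033). In the empty vector line the CP2 5 µM libraries held 24.7, 26.2 and 28.3 CPM. They too lay above the vehicle libraries, but the difference of 0.21 did not pass (SE 0.067, adjusted p = 0.052; 0.033 without replicate 1 of the CP2 group). The response to 5 µM CP2 in the 2 lines differed by 0.14, which did not pass either (adjusted p = 0.65).

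SLC30A1 was lower than vehicle in most of these comparisons. At 2.5 µM CP14 in the USP18 line, SLC30A1 libraries held 83.7, 79.9 and 80.0 CPM, below all vehicle libraries (log2 -0.16, SE 0.036, adjusted p = 0.0022). With 5 µM CP2 in the empty vector line they held 116, 113 and 97.2 CPM, also below the controls (log2 -0.22, SE 0.053, adjusted p = 0.010). Altogether SLC30A1 was lower than vehicle in 14 of 16 comparisons and passed in 8 of these, by at most 0.22 on the log2 scale.

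The other 6 falls were with CP14 at 1 µM in the USP18 line (log2 -0.14, adjusted p = 0.0060, and 0.09 with all 54 libraries in 1 fit) and with CP18. CP18 gave log2 differences of -0.16 at 1 µM, -0.17 at 2.5 µM and -0.20 at 5 µM in the USP18 line (adjusted p = 0.0053, 0.0014 and 0.036). In the empty vector line CP18 gave -0.11 at 2.5 µM and -0.22 at 5 µM (adjusted p = 0.043 and 0.021). The empty vector fall at 2.5 µM did not pass when any 1 of 9 of the 12 libraries was left out, and the same held for the fall at 5 µM in the USP18 line. The empty vector fall at 5 µM did not pass without any 1 of the 3 empty vector vehicle libraries (adjusted p of 0.071, 0.078 and 0.066 without replicates 1, 2 and 3).

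**Figure D3:**
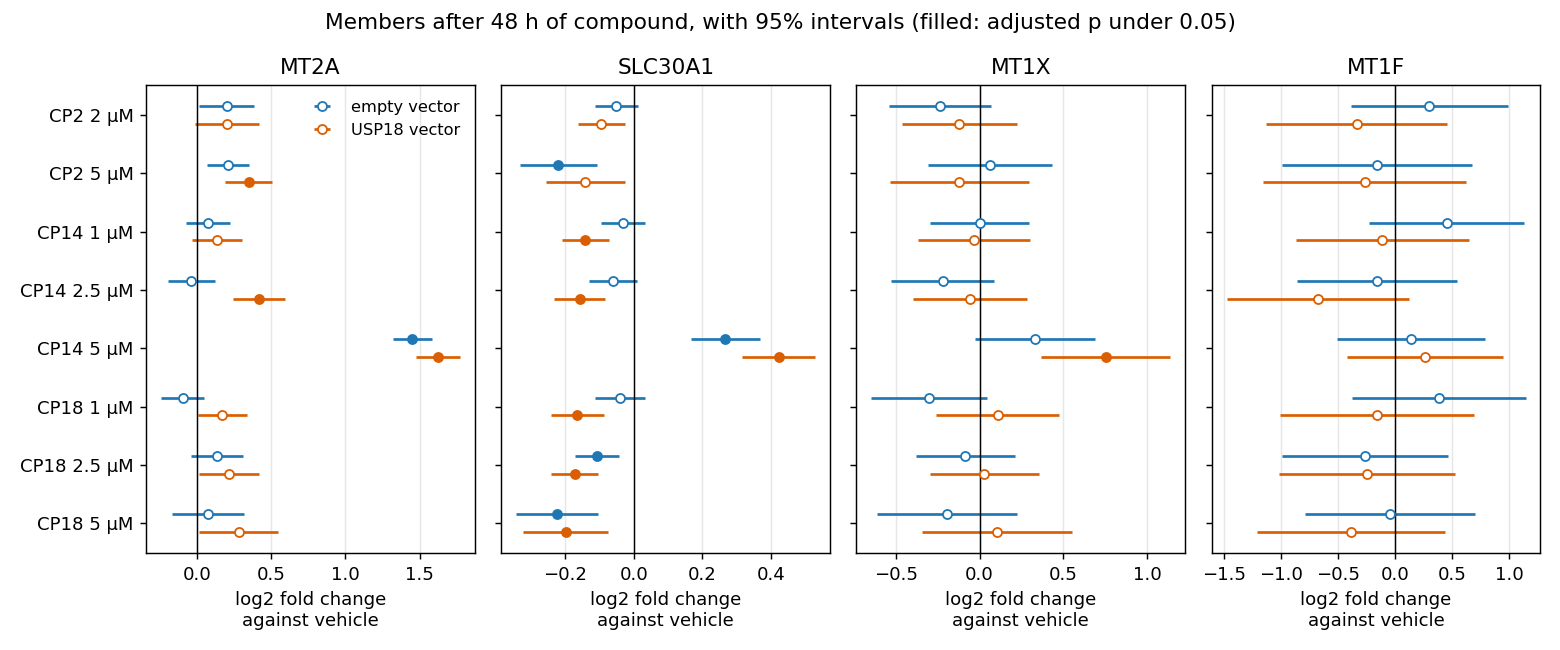
Log2 fold change against vehicle for MT2A, SLC30A1, MT1X and MT1F (horizontal axes, each with its own scale) at the 8 compound doses, in the empty vector (blue) and USP18 (orange) lines; bars are 95% intervals and filled points have an adjusted p under 0.05. MT2A reaches 1.45 and 1.62 with CP14 at 5 µM, and SLC30A1 lies above 0 at that dose alone.

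As counts, the members past an adjusted p of 0.05 at the lower CP14 doses were 0 of 4 at 1 µM with the empty vector (0.861% of all genes tested passed) and 1 of 4 with USP18 (15.3%). At 2.5 µM they were 0 of 4 (15.1%) and 2 of 4 (32.7%). With CP2 no member passed at 2 µM (1.84% of genes with the empty vector and 1.13% with USP18), and at 5 µM 1 of 4 passed in each line (12.1% and 19.0%). With CP18 at 1 µM 0 of 4 passed with the empty vector (0.368%) and 1 of 4 with USP18 (15.7%). At 2.5 µM CP18 1 of 4 passed in each line (5.96% and 14.2%), as at 5 µM (8.40% and 10.7%). For the interactions, 1 of 4 passed at 2.5 µM CP14 (8.00% of genes) and 0 of 4 at 5 µM CP14 (27.7%). The interactions of CP14 at 1 µM (5.79%), of CP2 at 2 and 5 µM (0.0569% and 0.920%) and of CP18 at 1, 2.5 and 5 µM (7.19%, 0.197% and 0.268%) held 0 of 4 members each.

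The vector line was the other source of difference. MT2A was lower in the USP18 line than in the empty vector line in all 9 conditions, and its libraries overlapped in none. With vehicle, the difference was -0.91 on the log2 scale, 1.88-fold lower (SE 0.071, adjusted p = 4.2e-09). Over the other 8 conditions it ran from -0.91 with 2 µM CP2 to -0.46 with 2.5 µM CP14, and it passed in each.

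SLC30A1 was likewise lower in the USP18 line in all 9 conditions without overlap. The difference with vehicle was -0.49 (SE 0.032, adjusted p = 4.7e-10), and it ranged from -0.61 with 1 µM CP18 to -0.32 with 5 µM CP14. The MT1X difference with vehicle was -0.65 (SE 0.15, adjusted p = 0.0012). It was lower in all 9 conditions and passed in 6, the exceptions being CP14 at 5 µM, CP18 at 1 µM and CP18 at 5 µM, and with 2.5 µM CP14 it did not pass without replicate 1 of the USP18 group (adjusted p = 0.077) or with DESeq2 (0.050 after rounding, just over the threshold). MT1F was also lower in 9 of 9 and passed in 2, at -0.998 with 2 µM CP2 (SE 0.36, adjusted p = 0.021) and -0.93 with 1 µM CP14 (SE 0.34, adjusted p = 0.027, and 0.074 with DESeq2). The MT1F results did not pass without replicate 1 of the empty vector group in either condition (adjusted p = 0.11 and 0.094), and the first also not without replicate 1 or 2 of the USP18 group (0.078 and 0.085), the second not without replicate 1 of the USP18 group (0.14). Leaving out 1 library also brought in MT1X in each of its 3 exceptions (adjusted p = 0.024, 0.023 and 0.028) and MT1F with 2.5 µM CP14 (0.033 or 0.031), 1 µM CP18 (0.0082) and 5 µM CP18 (0.035).

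**Figure D4:**
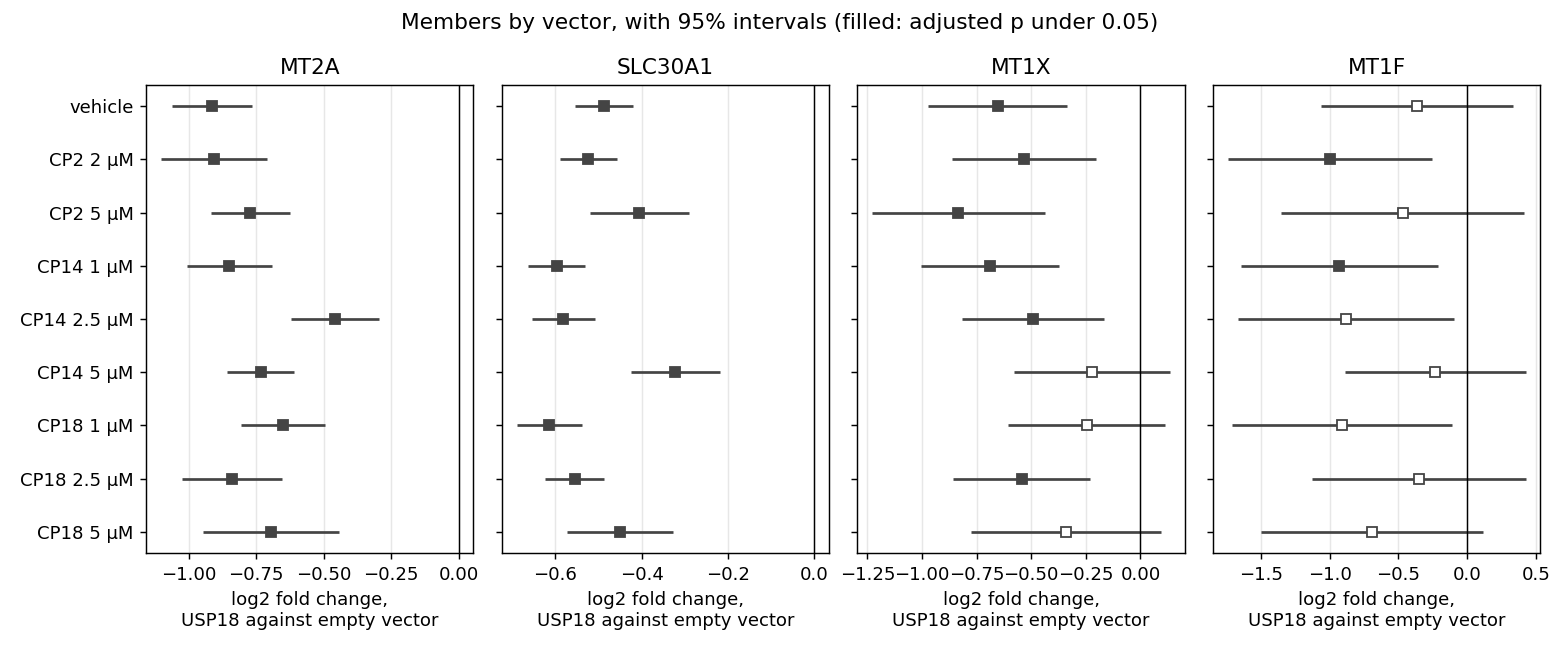
Log2 fold change of the USP18 line against the empty vector line for MT2A, SLC30A1, MT1X and MT1F (horizontal axes) in each of the 9 conditions; bars are 95% intervals and filled points have an adjusted p under 0.05. All points lie below 0, and those of MT2A and SLC30A1 are filled in every condition.

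With vehicle, 3 of the 4 tested members passed an adjusted p of 0.05 between the lines, and 57.7% of all genes did so. None had an absolute log2 fold change above 1, against 10.1% of all genes. With CP2, 4 of 4 passed at 2 µM (56.7% of genes) and 3 of 4 at 5 µM (52.2%). With CP14, 4 of 4 passed at 1 µM (55.5%), 3 of 4 at 2.5 µM (53.1%) and 2 of 4 at 5 µM (55.9%). With CP18, 2 of 4 passed at 1 µM (55.6%), 3 of 4 at 2.5 µM (54.2%) and 2 of 4 at 5 µM (48.1%). More than 48% of all genes thus differed between the lines, and the labels distinguish no more than 1 engineered line per vector. The effect of USP18 and other differences between the lines therefore cannot be told apart. Epithelial markers differed as well: their summed level with vehicle ranged from 7239 to 7435 CPM in the USP18 line and from 11284.5 to 11560 CPM in the empty vector line, and its part in the result was not tested.

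Set against each other at 5 µM, the compounds differed in MT2A and SLC30A1 only where CP14 was one of the pair. MT2A was 2.61-fold higher with CP14 than with CP18 in the empty vector line (log2 1.38, SE 0.11, adjusted p = 1.3e-09) and 2.54-fold higher in the USP18 line (log2 1.34, SE 0.12, adjusted p = 4.4e-09). The CP18 libraries held 21.9, 19.8 and 30.1 CPM with the empty vector and 16.0, 15.6 and 13.0 CPM with USP18, all below the CP14 libraries. SLC30A1 differed by 0.50 and 0.62 (adjusted p = 4.7e-06 and 2.1e-07). MT1X differed by 0.53 with the empty vector (adjusted p = 0.054) and 0.65 with USP18 (adjusted p = 0.021), and the latter did not pass without CP14 replicate 3 (0.17) or CP18 replicates 1 or 3 (0.068 and 0.094). The MT1X difference with the empty vector passed with no low-count filter (0.0083), with at least 10 counts in every library (0.042), with only the 2 groups (0.049), with all 54 libraries in 1 fit (0.017) and without any 1 of 4 libraries (0.0096 to 0.048).

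MT2A with CP2 at 5 µM was lower than with CP14 by 2.38-fold in the empty vector line (log2 -1.25, SE 0.066, adjusted p = 8.1e-12) and 2.39-fold in the USP18 line (log2 -1.26, SE 0.072, adjusted p = 1.7e-11). SLC30A1 was lower with CP2 in both lines (-0.49 and -0.55, adjusted p = 3.4e-06 and 8.2e-07). MT1X was lower with CP2 in the USP18 line (-0.85, SE 0.23, adjusted p = 0.0026) and differed by -0.27 in the empty vector line (adjusted p = 0.28). CP2 and CP18 at 5 µM were not told apart by any member. For MT2A their difference was 0.14 (95% interval -0.12 to 0.39) with the empty vector and 0.06 (-0.21 to 0.34) with USP18, so a difference of the size seen with CP14 lay outside both intervals.

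CP14 and CP18 at 1 and 2.5 µM did not differ past the test in any member either. The MT2A differences at 2.5 µM were -0.17 (95% interval -0.37 to 0.02) with the empty vector and 0.21 (-0.01 to 0.42) with USP18. At 1 µM they were 0.17 (0.00 to 0.33) and -0.03 (-0.21 to 0.15), and the first did not pass after adjustment (adjusted p = 0.73). MT1F did not pass in any of the 10 comparisons of compounds, where its log2 differences ran from -0.51 (CP2 against CP14 at 5 µM, USP18 line) to 0.65 (CP14 against CP18 at 5 µM, USP18 line). In all, 5 pairs of compounds were compared in each line, with p-values adjusted over all genes within a comparison.

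Between CP14 and CP18 at 5 µM, 2 of 4 members passed an adjusted p of 0.05 with the empty vector (57.5% of genes) and 3 of 4 with USP18 (64.9%). MT2A was the 1 member that also exceeded a log2 fold change of 1 in each (12.2% and 17.0% of genes). Between CP2 and CP14, 2 of 4 passed with the empty vector (59.4%) and 3 of 4 with USP18 (67.5%), and again 1 of 4 exceeded 1 (12.1% and 17.5%). The pairs in which 0 of 4 passed were CP2 against CP18 at 5 µM (0.0257% and 0.00641% of genes in the 2 lines), CP14 against CP18 at 1 µM (0.0191% and 0.0191%) and at 2.5 µM (1.80% and 28.2%).

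Between successive doses of CP14, MT2A differed most from 2.5 to 5 µM in both lines. Over that step it rose 2.82-fold with the empty vector (log2 1.50, SE 0.073, adjusted p = 2.6e-12) and 2.33-fold with USP18 (log2 1.22, SE 0.079, adjusted p = 1.3e-10). SLC30A1 rose by 0.34 and 0.60 on the log2 scale (adjusted p = 1.9e-05 and 1.7e-08). MT1X rose by 0.56 with the empty vector (adjusted p = 0.016, and 0.10 without replicate 1 of the 5 µM group) and by 0.83 with USP18 (adjusted p = 0.0014). MT1F rose by 0.96 in the USP18 line (SE 0.37, adjusted p = 0.031), a result on 7 to 19 counts per library that did not pass without replicate 1 or 2 of the 2.5 µM group (0.12 and 0.094) or replicate 2 or 3 of the 5 µM group (0.080 and 0.087), with no low-count filter (0.074) or with DESeq2 (0.091). MT1F differed over that step by 0.31 with the empty vector (95% interval -0.39 to 1.00, adjusted p = 0.44).

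From 1 to 2.5 µM CP14, MT2A rose by 0.28 in the USP18 line (SE 0.089, adjusted p = 0.025), which did not hold without replicate 1 of the 1 µM group (0.14) or replicate 2 of the 2.5 µM group (0.098), with DESeq2 (0.050 after rounding, just over the threshold) or with all 54 libraries in 1 fit (0.074). In the empty vector line the difference was -0.10 (adjusted p = 0.48). No member passed for the steps of CP2 or CP18 in the fits as designed. SLC30A1 from 2 to 5 µM CP2 with the empty vector, at -0.17 (adjusted p = 0.072), passed with no low-count filter (adjusted p = 0.0041), with DESeq2 (0.036), with all 54 libraries in 1 fit (0.036) and without replicate 1 of the empty vector 5 µM group (0.017). The largest MT2A difference among these steps was 0.24 for CP18 from 1 to 2.5 µM with the empty vector (adjusted p = 0.13), which passed with only the 2 groups (0.042) and without replicate 3 of the USP18 2.5 µM group (0.049).

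Counted over members, 3 of 4 passed between 2.5 and 5 µM CP14 with the empty vector (58.8% of genes) and 4 of 4 with USP18 (61.6%), and 1 of 4 in each line exceeded a log2 fold change of 1 (11.4% and 12.2%). Between 1 and 2.5 µM CP14, 0 of 4 passed with the empty vector (10.7%) and 1 of 4 with USP18 (26.1%). None of the 4 passed between 2 and 5 µM CP2 (5.85% and 15.6%), between 1 and 2.5 µM CP18 (5.58% and 0.00638%) or between 2.5 and 5 µM CP18 (0.186% and 0.276%).

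Ordered by group mean, MT2A fell into 4 tiers. CP14 at 5 µM with the empty vector came first (62.7 ± 2.44 CPM, SD, n = 3) and with USP18 next (37.5 ± 3.23). The other 8 empty vector groups followed, from 26.4 ± 1.80 with 5 µM CP2 to 21.4 ± 1.05 with 1 µM CP18, each overlapping its neighbour. The other 8 USP18 groups came last, from 16.2 ± 0.700 with 2.5 µM CP14 to 12.1 ± 0.732 with vehicle, again each overlapping its neighbour.

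SLC30A1 had a different order. CP14 at 5 µM with the empty vector was first (154 ± 9.60 CPM) and vehicle with the empty vector next (127 ± 1.38). CP14 at 5 µM with USP18 had rank 7 (122 ± 9.30) and overlapped the empty vector groups beside it. The USP18 vehicle group (90.6 ± 3.09) stood above the other 7 USP18 groups, whose means lay between 79.7 and 85.0 CPM. Neighbours in the orders of MT1X and MT1F overlapped throughout.

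Across the 18 group means, MT2A and MT1X had a Pearson correlation of 0.915, MT2A and SLC30A1 of 0.878, and MT1X and SLC30A1 of 0.913. For MT1F the correlation was 0.651 with MT2A, 0.750 with MT1X and 0.875 with SLC30A1. These points share vector lines and library preparation and are given as a description. Of 12683 genes considered, those closest to the mean of the metallothioneins over the groups were AMOTL2 (r = 0.982), SEC31A (0.979), SLX4IP (0.978), S100A16 (0.978) and NUPR1 (0.977). Those closest to SLC30A1 were SEC31A (0.986), SH3BP4 (0.982), PTP4A1 (0.981), ATXN1L (0.981) and PDGFA (0.979).

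The rest of zinc transport changed in both directions at 5 µM CP14. SLC39A10, an importer whose transcription MTF1 is known to repress, fell by 1.24 on the log2 scale in the empty vector line (SE 0.054, adjusted p = 1.7e-14) and by 1.24 in the USP18 line (SE 0.052, adjusted p = 7.3e-15). It was the 1 importer of 11 tested to change by more than 1 in either line. Of the 11, 6 fell and 2 rose at an adjusted p under 0.05 with the empty vector, and 7 fell and 1 rose with USP18. The 8 of 11 that passed in each line stand beside 63.2% and 68.6% of all genes. SLC39A14, an importer of zinc and of iron not bound to transferrin, rose by 0.71 and 0.56 (adjusted p = 5.4e-14 and 2.8e-12).

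Among the zinc exporters other than SLC30A1, 6 of 9 listed were tested. Of these 2 rose with the empty vector, and 2 rose and 2 fell with USP18, none by more than 1. Over all genes 63.2% and 68.6% passed, and 13.8% and 18.0% with a log2 fold change beyond 1. SLC30A4, which loads zinc into vesicles, rose by 0.75 and 0.60 (adjusted p = 2.4e-05 and 0.00018), and SLC30A7 of the secretory pathway by 0.41 and 0.40 (7.5e-05 and 6.3e-05). MTF1 itself rose by 0.51 and 0.34 (adjusted p = 4.4e-07 and 7.7e-05), and ZNF658, a zinc finger protein linked to transcriptional control by zinc, fell by 0.47 and 0.59 (0.00013 and 5e-06).

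Of 4 heavy-metal stress genes tested with 5 µM CP14, 1 rose and 3 fell with the empty vector, and 1 rose and 2 fell with USP18, where 63.2% and 68.6% of all genes passed. Their median log2 difference was -0.45 and -0.40. HMOX1, which encodes heme oxygenase 1 and responds to heavy metals and oxidants, rose by 0.54 in the empty vector line (adjusted p = 2.4e-07) and by 1.55 in the USP18 line (SE 0.073, adjusted p = 4.2e-14). HSPA1A, a heat shock protein gene also induced by cadmium, fell by 1.02 in both lines (adjusted p = 2.9e-10 in each), and HSPA1B fell by 0.76 and 0.75. DNAJB1, a co-chaperone of heat shock proteins, fell by 0.14 with the empty vector (adjusted p = 0.022) and differed by -0.05 with USP18 (adjusted p = 0.41). Of 7 glucocorticoid-responsive genes tested, 3 rose and 3 fell in each line, beside 63.2% and 68.6% of all genes that passed. TSC22D3 (GILZ) rose by 2.43 and 2.60, CEBPD fell by 1.61 and 1.23, and DUSP1 rose by 1.24 in the USP18 line (adjusted p = 1.5e-15).

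In copper handling, 12 rows for 11 genes were tested, because the symbol SCO2 names 2 rows. With the empty vector 1 rose and 5 fell, and with USP18 3 rose and 6 fell, none by more than 1, where 63.2% and 68.6% of all genes passed. SOD1, the copper and zinc superoxide dismutase, fell by 0.59 and 0.72. The copper exporter ATP7A fell by 0.68 and 0.51. One of the SCO2 rows passed with 1 µM CP18 in the USP18 line (log2 1.31, SE 0.42, adjusted p = 0.039) while the other differed by 0.25 (adjusted p = 0.17). With DESeq2, 0 genes were called in that comparison, against 50 in the fit as designed. Against medians near 0 for all genes, the median log2 difference with 5 µM CP14 was -0.24 and -0.30 for the importers, 0.05 and 0.03 for the exporters and -0.16 and -0.10 for the copper genes.

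Marker genes called at a treatment outside the epithelial list were LAMP3, CD14, LUM, COL1A1 and COL3A1. LAMP3, listed with alveolar type II cells, rose by 4.62 and 4.55 with 5 µM CP14 and by 2.81 with 2.5 µM CP14 in the USP18 line, while SFTPB stayed at 0. With 5 µM CP14 in the 2 lines CD14 fell by 1.96 and 3.84, LUM fell by 1.39 and 2.84, and COL3A1 had log2 differences of -1.69 and -3.53. COL3A1 also fell by 1.09 with 2.5 µM CP14 in the USP18 line, and COL1A1 by 1.01 with 5 µM CP14 and the empty vector. The fibroblast sum was at most 16.0 CPM with vehicle, and the part of these genes in the members' changes was not tested.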

How the data were processed

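RNA-seq libraries of A549 cells (18 groups, 3 replicates each, grouped by their labels) were analysed from 1 deposited table. Expected counts per gene had been estimated by the authors with RSEM before deposition and were not scaled between libraries; 94.0% of values are whole numbers. The submitters' processing notes name cutadapt 1.18, STAR 2.7.0f, RSEM 1.3.1 and build hg38. The methods map reads to the human genome with a human GENCODE annotation but name another RSEM version and a mouse annotation for quantification, whereas the table's identifiers are human. They describe ribosomal depletion where the labels describe poly(A) capture; poly(A) selection and depletion can weigh short transcripts such as metallothioneins differently.

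Expected counts were rounded and tested with edgeR 4.0.16 (TMM, filterByExpr with a minimum count of 10, quasi-likelihood test) in R 4.3.3. Each treatment was fitted with both vehicle groups (4 groups), and compound pairs and dose steps with both lines. P-values were adjusted by Benjamini-Hochberg over all genes tested, two-sided. A gene was called at an adjusted p under 0.05 and an absolute log2 fold change above 1 (interactions: adjusted p alone). SE is the log2 fold change divided by the square root of F. CPM used TMM over all 54 libraries, and lengths of Ensembl canonical transcripts in GENCODE v44, which held 58472 of the 58870 identifiers. By the rule fixed for names, all members were to be named in every comparison (those that did not pass are partly given as ranges), from each list every gene called with a treatment, and for likeness the 5 genes with the highest correlation among those with a mean log2 CPM of at least 1; ZNF658, SLC39A14, SLC30A4, SLC30A7, MTF1, SOD1, ATP7A, HSPA1B and DNAJB1 were named after their values were seen. The members and lists were chosen with earlier results of these data known. DESeq2 1.42.0, other filters, RLE scaling, a replicate block, other sample sets and leaving out each library were the alternatives. Replicates differed by more than sampling noise in all 54 pairs (chi-square per gene 1.80 to 11.1). Floors for counts of 0 cover counting error only, since reads carry no molecular identifiers. 1 listed glucocorticoid-responsive gene was not analysed here.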

Additional observations from a re-analysis of the deposited data

Results flagged for a closer look

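The response of MT2A to 2.5 µM CP14 differed between the vector lines by 0.46 on the log2 scale (interaction, SE 0.11, adjusted p = 0.017, edgeR). MT2A rose in the 3 USP18 libraries relative to the 3 USP18 vehicle libraries, and in the empty vector line the difference was -0.04. The sum of the 14 MT1 and MT2A rows, of which MT2A holds most counts, gave 0.37 for the same interaction (SE 0.10, adjusted p = 0.031). The interaction of the sum did not pass without any 1 of 8 of the 12 libraries (adjusted p from 0.057 to 0.093) or with all 54 libraries in 1 fit (0.17), and that of MT2A not without replicate 3 of the USP18 vehicle group (0.055), without replicate 2 of the USP18 CP14 group (0.053) or in that 1 fit (0.07). In the fits that did not pass, the interaction was 0.41, 0.41 and 0.45 for MT2A and 0.31 to 0.38 for the sum. Groups of 3 libraries were not tested for single outlying values.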

How the results depend on the processing

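The MT2A rise with 5 µM CP14 was called in both lines under every alternative run: RLE scaling, no low-count filter, at least 10 counts in every library, DESeq2, a replicate block, only the 2 groups compared, all 54 libraries in 1 fit, and each library left out in turn (log2 fold changes from 1.42 to 1.70 over both lines). No member's log2 fold change changed sign where it or its alternative passed the test. Counts of members called moved in few comparisons. Between the vector lines at 2 µM CP2, 1 member (MT1F) was called instead of 0 with RLE scaling, with DESeq2, with only the 2 groups and with all libraries in 1 fit. For the interaction at 2.5 µM CP14, 0 members were called instead of 1 with all libraries in 1 fit. Leaving out single libraries moved the count between 0 and 1 for these comparisons, for the interaction at 5 µM CP14 (SLC30A1, adjusted p = 0.049 without the empty vector CP14 replicate 3 and 0.0069 without the USP18 CP14 replicate 1) and for the vector lines with 5 µM CP2, 1 and 2.5 µM CP14, and 1 and 5 µM CP18. In the USP18 line it moved the count between 1 and 2 for CP14 against CP18 at 5 µM, CP2 against CP14 at 5 µM, and 5 against 2.5 µM CP14. The cause was not tested. With at least 10 counts in every library, MT1F was tested in 9 of the 53 comparisons, and with only the 2 groups it was not tested for CP2 at 5 against 2 µM or CP2 against CP18 at 5 µM in the USP18 line. Among falls of SLC30A1, that with 2.5 µM CP18 and the empty vector did not pass with DESeq2 (adjusted p = 0.056), with no filter (0.074), with only the 2 groups (0.052) or with all libraries in 1 fit (0.31), and that with 5 µM CP18 and the empty vector not with only the 2 groups (0.095). Against vehicle, differences that passed in an alternative alone were, in the USP18 line, SLC30A1 with 5 µM CP2 (adjusted p = 0.036 with no filter, 0.02 with only the 2 groups, 0.019 without 1 empty vector library), MT2A with 5 µM CP18 (0.045 with no filter, 0.03 with only the 2 groups, 0.03 without 1 empty vector library) and MT2A with 2.5 µM CP18 (0.0099 without replicate 3 of that group). In the empty vector line they were MT2A with 5 µM CP2 (0.048 with at least 10 counts in every library) and MT1X with 5 µM CP14 (with only the 2 groups, just under the threshold at 0.050 after rounding). MT1F passed between the lines with 1 µM CP18 with all libraries in 1 fit (0.044), and between 5 µM CP14 and CP18 in the USP18 line without CP18 replicate 1 (0.028).

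Replicate numbers did not pair the samples: in 0 of 45 comparisons did all 3 same-numbered pairs have a correlation above 0.1 (range -0.203 to 0.325). With the replicate block, the SLC30A1 fall with 5 µM CP18 in the USP18 line had an adjusted p of 0.058, and the counts of members called were the same as without it in all 53 comparisons.

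MT1F, with 5 to 32 counts per library, and MT1X, with windows shared with other genes, are limited by depth and by the estimation of counts. MT1E and MT1G could not be compared. Differences between the lines rest on no more than 1 engineered line per vector that the labels distinguish. Every comparison with vehicle rests on the same 3 control libraries per line.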
